A study of Homo sapiens with 6 samples.

Results

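Interferon signalling and interferon-stimulated genes were examined in the RNA-Seq comparison of C4-2B parental cells with C4-2B enzalutamide resistant cells. The group of genes was a list of 48 named members among the 58024 genes of the expression table. The list was taken by symbol, with earlier results of these data known. It holds 7 receptors and kinases, 3 genes for sensors of foreign RNA (DDX58, IFIH1) and for an adaptor of DNA sensing (TMEM173), 5 transcription factors and 33 stimulated genes. All 48 were found. C4-2B is a human prostate cancer line of the LNCaP lineage, and enzalutamide is an antiandrogen drug. There were 3 libraries of each kind of cell. The parental cells were kept in the vehicle, dimethyl sulfoxide. The resistant cells were the survivors of repeated passage in 1 to 20 µM enzalutamide over at least 6 months, and 5 µM enzalutamide stayed in their medium afterwards, so that they are a pooled, selected population of a single line. The extraction notes name 10 µM enzalutamide for resistant and sensitive cells together, which taken plainly includes the parental cells, although these are described as kept in the vehicle. The labels do not say whether the libraries of a group came from separate cultures, so that p values measure only the spread between these libraries.

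Interferons are secreted proteins that warn cells of infection. Type I interferons bind the receptor made of IFNAR1 and IFNAR2, which works through the kinases JAK1 and TYK2, and leads to a complex with STAT2 and IRF9 that binds the interferon-stimulated response element (ISRE). Interferon gamma binds IFNGR1 and IFNGR2, which work through JAK1 and JAK2, and leads to binding of the gamma-activated site (GAS). The genes switched on in this way encode antiviral proteins that block entry, copying or translation of viral RNA, and many of them are also used at a low level in cells that receive no interferon.

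Values are FPKM, which divide the fragments of a gene by its length and by the fragments of the library, so that levels of different genes are compared per length. Summed FPKM ranged from 792975 to 870110 per library, and the Pearson r of log2 values across genes was 0.911 to 0.929 for pairs of libraries within a group and 0.782 to 0.802 for pairs between groups. No read counts were given, and by a rough estimate 1 read on a gene of 2000 bases was worth between 0.0270 and 0.0419 FPKM. All 8 prostate luminal markers were present at 41.8 FPKM or more in every library. Their sum was 3746 to 4401 FPKM in parental and 799 to 855 FPKM in resistant libraries, and KLK3, the prostate-specific antigen, ranged from 2321 to 2857 FPKM in the first and from 41.8 to 46.8 FPKM in the second. The 10 leukocyte markers together reached at most 1.49 FPKM in parental and 3.01 FPKM in resistant libraries, with the T cell genes CD3E and CD3D and the NK cell gene NKG7 listed at 0 in all libraries and PTPRC (CD45) at 0 in 5 of 6. The 8 fibroblast and endothelial markers summed to 7.36 to 10.1 FPKM in parental and 8.66 to 14.8 FPKM in resistant libraries. Of these 8, DCN was at 0 in every parental library and at 3.63 to 4.35 FPKM in the resistant libraries. LUM had means of 0.0604 FPKM in parental and 0.969 FPKM in resistant cells. Both reached the mean of 0.1 FPKM asked for testing through the resistant libraries alone, so their calls are not used. VWF was called lower and COL1A1 had means of 6.71 and 4.39 FPKM without a call. The part of such markers in the differences described here was not tested. In bulk RNA, fewer cells that use a gene and less of its RNA per cell cannot be told apart.

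The promoters of 7 stimulated genes are shown because the same letters stand close to the start of genes that were higher and of genes that were lower in resistant cells. The sequences are RefSeq windows on GRCh38.p14, each written 5′ to 3′ on the strand of its gene, and capitals mark the ISRE letters GAAANNGAAA on either strand (TTTCNNTTTC when on the other). For the genes that were higher, ISG15 is shown at chr1:1013364-1013419 on the plus strand (bases -133 to -78 from its start), IFIT5 at chr10:89414503-89414567 on the plus strand (-65 to -1) and RSAD2 at chr2:6877612-6877661 on the plus strand (-165 to -116). Another IFIT5 match spans the start and lies partly outside the stretch shown.
ISG15: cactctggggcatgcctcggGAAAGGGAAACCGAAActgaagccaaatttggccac
IFIT5: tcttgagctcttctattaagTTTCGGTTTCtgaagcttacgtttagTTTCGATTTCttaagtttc
RSAD2: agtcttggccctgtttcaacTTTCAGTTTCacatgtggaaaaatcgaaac

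For the genes that were lower, IFI6 is shown at chr1:27672256-27672368 on the minus strand (-176 to -64), IFITM3 at chr11:320866-320932 on the minus strand (-72 to -6), IFI44 at chr1:78649751-78649800 on the plus strand (-80 to -31) and ISG20 at chr15:88638927-88638976 on the plus strand (-89 to -40).
IFI6: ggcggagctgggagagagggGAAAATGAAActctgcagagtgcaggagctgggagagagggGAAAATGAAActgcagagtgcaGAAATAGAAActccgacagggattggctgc
IFITM3: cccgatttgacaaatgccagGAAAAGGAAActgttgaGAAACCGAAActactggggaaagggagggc
IFI44: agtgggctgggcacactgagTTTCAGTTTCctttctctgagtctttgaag
ISG20: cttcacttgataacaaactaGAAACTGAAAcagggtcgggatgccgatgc

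Windows of 300 bases (250 before the start and 50 after it) were at hand for 37 of the 48 members, and 20 of these (54.1%) held the ISRE letters, against 3.16% of 19090 windows of all genes. Among stimulated genes the letters stood in 19 of 26 windows. They were found in 3 of 4 windows of genes that were higher (ISG15, IFIT5, RSAD2), in 6 of 9 of genes that were lower, in 8 of 10 of genes that passed in neither direction and in 2 of 3 of genes too low to test. The 6 windows of receptors and kinases and the 3 of transcription factors held none, and that of the sensor gene IFIH1 held 3 matches. The GAS letters TTCNNNGAA, which read the same on both strands, stood in 9 of the 37 windows (24.3%) and in 7.11% of all windows. IRF1 and IRF9 were among these 9, and in BST2, EPSTI1, IFI27 and IFITM1 a GAS match overlapped an ISRE match. A match describes these letters only and is not evidence of binding.

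**Figure D1:**
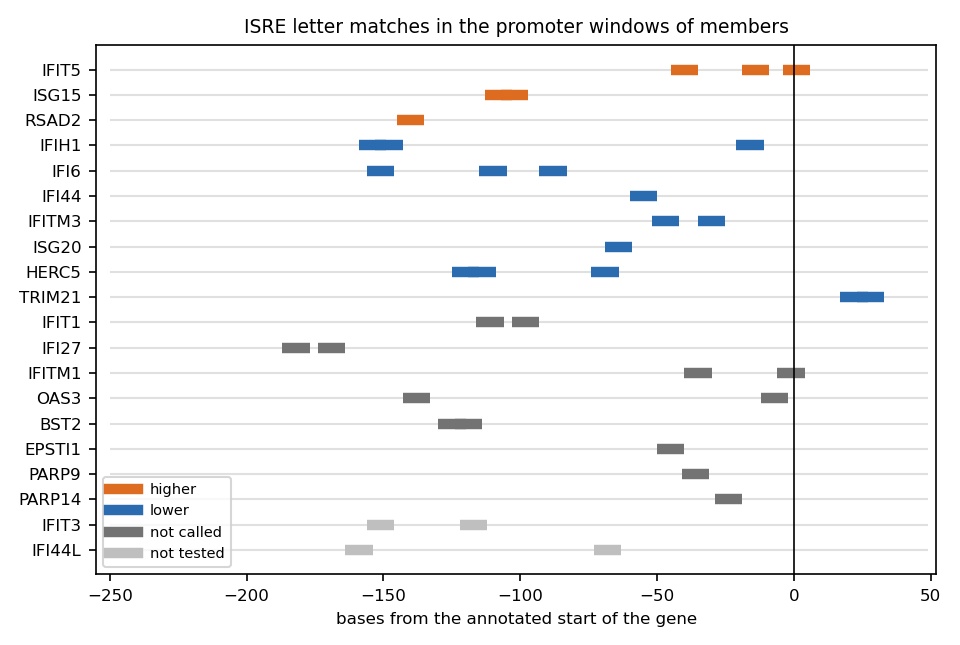
Positions of the ISRE letters in the promoter windows of the 20 members that hold them, in bases from the annotated start (the vertical line). Bars are matches, coloured by whether the gene was higher, lower, not called or not tested in resistant cells, and genes of each kind have matches upstream of the start. Those of TRIM21 lie downstream of it.

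Of the 48 members, 44 reached a mean of 0.1 FPKM across the libraries and were tested. A gene was called when its adjusted p over all genes tested was below 0.05, and 9 members were called higher and 14 lower in resistant cells. Members called made up 52.3% of those tested, beside 44.4% of all 24468 genes tested (22.1% higher and 22.3% lower) and 55.7% of the protein-coding genes (28.9% higher and 26.7% lower). The median difference of the members was -0.01 on the log2 scale, against -0.05 for all genes tested. The values of the groups did not overlap in 27 members, 11 above and 16 below the parental range, where 54.8% of all genes did not overlap (26.6% above, 28.1% below) and 66.3% of the protein-coding genes (34.1% above, 32.2% below). At 2-fold or more stood 4 of the 9 members called higher and 13 of the 14 called lower. The share of all genes called at this size was not taken, so these counts are not read as a trait of the members. Differences are resistant minus parental on the scale of log2(FPKM + 0.1), which understates the change of genes at low levels. TMEM173, IFI44 and IFIT2 passed the filter on low values through their parental level alone, with resistant means under 0.1 FPKM. They are part of the counts of genes called lower, but no p is given for them.

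By role, 2 of the 7 receptors and kinases were called higher and 0 lower, with a median difference of -0.04. Of the 3 sensor and adaptor genes, 2 were lower (the sensor gene IFIH1 and the adaptor gene TMEM173) and 0 higher. At an unadjusted p under 0.05, limma gave these 2 roles the same counts. The 5 transcription factors gave 1 higher and 1 lower. Stimulated genes were called in both directions, 6 of 29 tested (20.7%) higher and 11 (37.9%) lower, with a median of 0.02 and a range from -3.82 to 2.39. The 6 became 2 without resistant replicate 0 or resistant replicate 2 and 3 without parental replicate 1, and the 9 members called higher became 4, 4 and 5 without these libraries. The receptors and kinases ranged from -0.38 to 1.10, but a range widens with the number of genes, here 7 against 29, so the ranges are not compared. No test of one role against the other was made, since genes are not replicates.

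**Figure D2:**
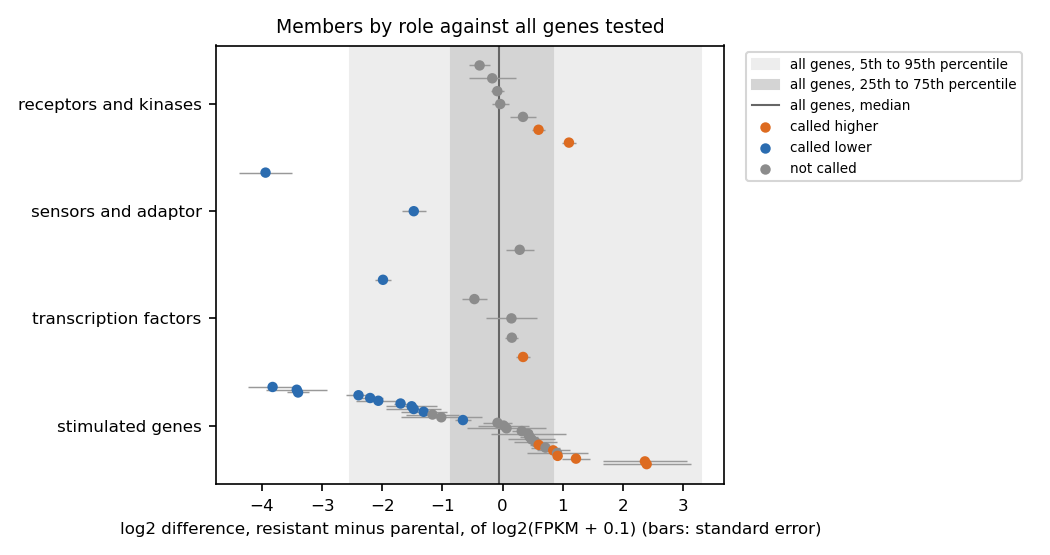
Difference between resistant and parental cells for each of the 44 members tested (points, with bars for the standard error), by role and on the scale of log2(FPKM + 0.1). Grey bands give the middle of the distribution of all 24468 genes tested. Below the 5th percentile of all genes (-2.54) lie the adaptor gene TMEM173 and the stimulated genes SP100, IFI44 and IFI6. The sizes for TMEM173 and IFI44 depend on the pseudocount. The sensor genes IFIH1 (-1.48) and DDX58 (0.28) lie above that percentile, and the receptors and kinases stay between -0.38 and 1.10.

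Both chains of the interferon gamma receptor were higher in resistant cells, while the type I receptor and the kinases were not called. IFNGR2 (chr21:33403413-33479348 on GRCh38), the signal-transducing chain, stood at 10.1, 8.45 and 9.88 FPKM in parental replicates 0, 1 and 2 and at 20.2, 21.8 and 19.2 FPKM in the resistant replicates. The groups were well apart, with means of 9.47 ± 0.883 (SD, n = 3) and 20.4 ± 1.32 FPKM (SD, n = 3), and the log2 difference was 1.10 (SE 0.11, adjusted p = 5.03e-04). Its exons share 380 bases with TMEM50B on the opposite strand, a gene at 19.2 FPKM in parental and 25.8 FPKM in resistant cells, and whether strand was used in the authors' counting is not stated. IFNGR1 (chr6:137197483-137219449), the ligand-binding chain, had 7.57, 8.16 and 8.29 FPKM in parental cells against 12.5, 11.5 and 12.5 FPKM in resistant cells. These did not overlap either, and the log2 difference was 0.60 (SE 0.11, adjusted p = 0.00467).

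IFNAR1, a chain of the type I receptor, had 11.2, 14.5 and 9.26 FPKM in parental and 8.63, 8.45 and 9.21 FPKM in resistant libraries. All resistant values lay under the lowest parental value, but the gap to it was small and the difference of -0.38 (SE 0.18) was not called (adjusted p = 0.129). It was called without parental replicate 2, the lowest of its group (-0.53, adjusted p = 0.0457). IFNAR2, the other chain, had 6.88, 7.83 and 7.33 FPKM against 7.64, 6.21 and 7.65 FPKM, and its groups overlapped (adjusted p = 0.843). A read-through transcript with IL10RB shares 47.4% of the 50-base windows of IFNAR2, but was listed at means of 0.136 FPKM in parental and 0 FPKM in resistant cells. Within each library the ratio of IFNGR2 to IFNAR1 was 0.900, 0.585 and 1.07 in parental cells and 2.34, 2.58 and 2.09 in resistant cells.

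The kinases carry the signal from the receptor to the STAT proteins. TYK2 was the most abundant of them per length, at 43.5, 41.8 and 52.4 FPKM in parental and 40.7, 44.3 and 43.9 FPKM in resistant libraries, and the groups overlapped (adjusted p = 0.526). JAK1, which serves both receptors, had 3.66, 3.06 and 3.14 FPKM in parental libraries and 2.00, 2.2 and 5.47 FPKM in resistant libraries. Resistant replicate 2 was above and the other 2 resistant libraries were below all parental values, so no direction can be given (adjusted p = 0.751). JAK2 had 3.60, 4.35 and 4.45 FPKM against 4.41, 4.63 and 7.0 FPKM (adjusted p = 0.267), with the same library again the highest.

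**Figure D3:**
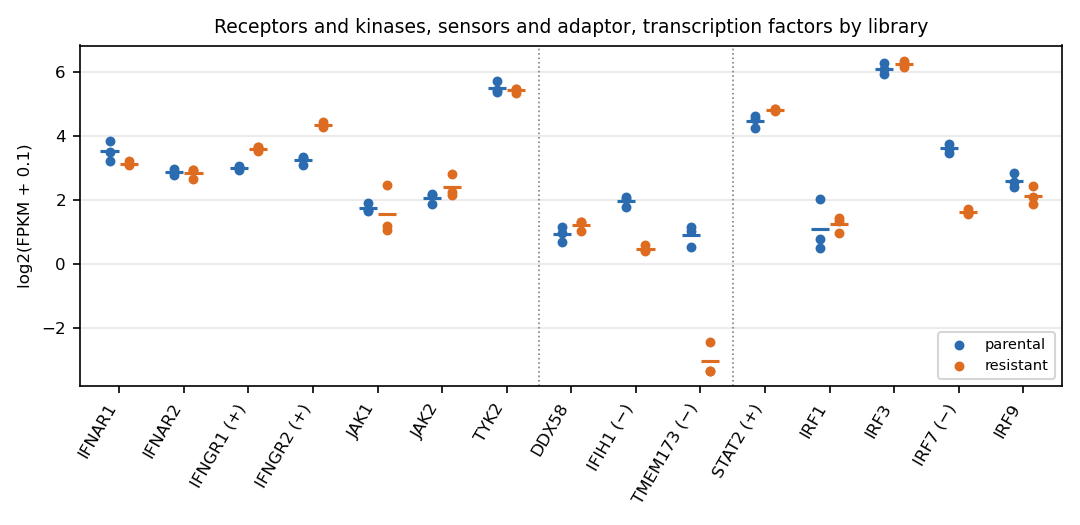
Level of each receptor, kinase, sensor, adaptor and transcription factor in each library, as log2(FPKM + 0.1), with a bar at the mean of 3 libraries. A plus or minus after a name marks a gene called higher or lower in resistant cells. The values of the groups do not overlap for IFNGR1, IFNGR2 and STAT2 (resistant above) and for IFNAR1, IFIH1, TMEM173 and IRF7 (resistant below), and of these IFNAR1 was not called.

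Sensors detect viral nucleic acid inside the cell and lead, through adaptors, to production of interferon. Of the 3 sensor and adaptor genes, 2 were lower in resistant cells. TMEM173, which encodes STING, the adaptor of DNA sensing, had 1.35, 1.97 and 2.16 FPKM in parental cells. In the resistant libraries it was listed at 0 in replicates 0 and 1 and at 0.0877 FPKM in replicate 2. The log2 difference was -3.94 (SE 0.43), and its size depends on the pseudocount, with -1.45 at a pseudocount of 1 FPKM and -6.40 at 0.01 FPKM. Since TMEM173 passed the filter on low values through the parental libraries alone, no p is given. IFIH1, which encodes MDA5, a sensor of long viral RNA, had 3.97, 3.36 and 4.15 FPKM in parental and 1.24, 1.44 and 1.25 FPKM in resistant libraries. All resistant values were far below the parental ones (-1.48, SE 0.20, adjusted p = 0.00149). DDX58, which encodes RIG-I, a sensor of short viral RNA, had 1.51, 2.16 and 1.88 FPKM against 1.96, 2.43 and 2.41 FPKM, and its groups overlapped (adjusted p = 0.362).

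Of the transcription factors, IRF7 differed by far the most. IRF7 (chr11:612553-615983), the master regulator of type I interferon genes, had 11.1, 12 and 13.5 FPKM in parental and 2.91, 3.20 and 2.87 FPKM in resistant libraries. The log2 difference was -1.99 (SE 0.14, adjusted p = 1.07e-04), with means of 12.2 ± 1.23 and 2.99 ± 0.179 FPKM (SD, n = 3 each). IRF3, the factor that acts directly below the sensors, had means of 69.1 FPKM in parental and 76.5 FPKM in resistant cells, where ISG15 had 65.0 and 123 FPKM. Its levels were 60.8, 68.2 and 78.2 FPKM in parental against 71.5, 81.2 and 76.9 FPKM in resistant libraries, with overlapping groups (adjusted p = 0.304).

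STAT2, the activating subunit of the complex formed after type I interferon, had 24.7, 19.2 and 23.2 FPKM in parental and 27.6, 28.5 and 28.5 FPKM in resistant libraries. It was called higher (0.34, SE 0.11, adjusted p = 0.0497), but this call was held only in the fit without parental replicate 0 when single libraries were left out. The adjusted p was 0.0734 without parental replicate 1, 0.0798 without parental replicate 2, and 0.0978, 0.118 and 0.120 without resistant replicates 0, 1 and 2. IRF9, the DNA-binding subunit of the same complex, had 5.28, 5.79 and 7.17 FPKM against 3.61, 4.20 and 5.36 FPKM (-0.47, adjusted p = 0.114), and 92.8% of its 50-base windows also occur in an overlapping read-through gene, which was listed at means of 1.23 and 0.919 FPKM. IRF1, an early target of interferon gamma, had 1.64, 1.33 and 3.97 FPKM against 1.88, 2.44 and 2.63 FPKM (adjusted p = 0.806), and parental replicate 2 alone exceeded all resistant values.

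The sum over the 33 stimulated genes was nearly the same in all libraries, at 243, 232 and 245 FPKM in parental and 230, 244 and 251 FPKM in resistant cells. Behind this sum stood unlike members, since ISG15 made up the largest share of it. Without ISG15 the sum was 181, 166 and 178 FPKM in parental and 116, 113 and 128 FPKM in resistant libraries, and these did not overlap. Without both ISG15 and IFITM3 it was 133, 123 and 133 FPKM against 101, 100.4 and 114 FPKM, still without overlap. ISG15 was higher and IFITM3 lower in resistant cells, and the sum without IFITM3 alone was not taken. The direction of such a sum depends on which genes are left out, so no direction of the stimulated genes as a whole is read from it. Of the 33 genes, 5 averaged 10 FPKM or more (ISG15, IFITM3, IFITM2, OAS3, ISG20), 14 had 1 to 10 FPKM and 14 were under 1 FPKM.

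**Figure D4:**
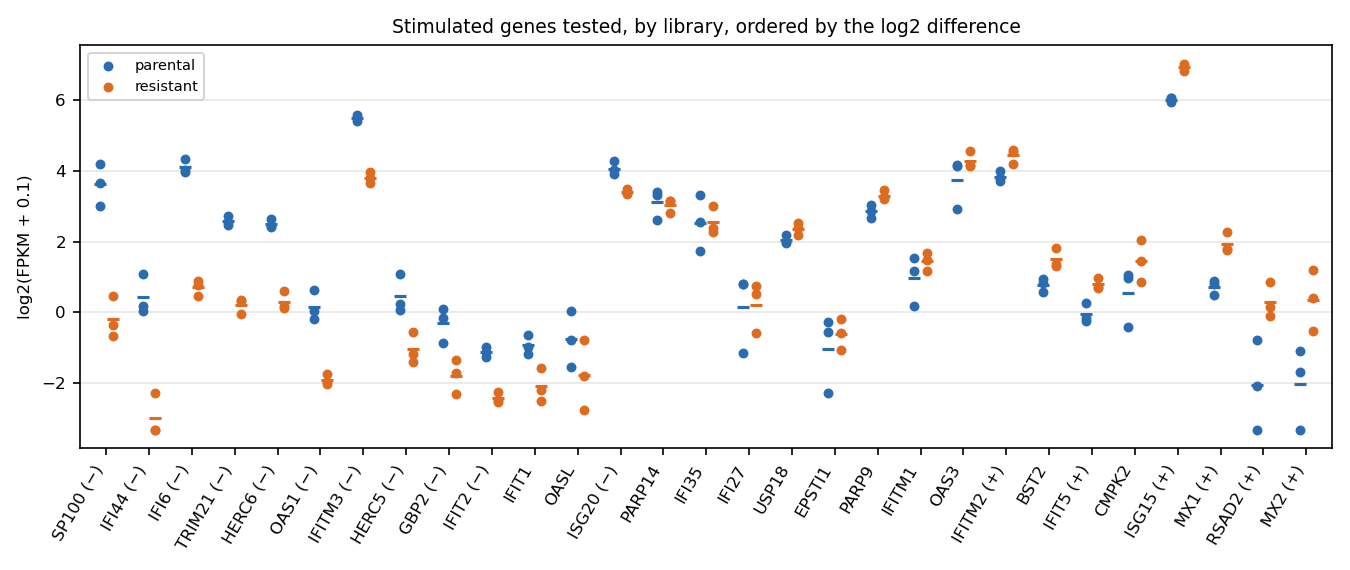
Level of the 29 stimulated genes tested in each library, as log2(FPKM + 0.1), with a bar at the mean of 3 libraries, ordered from the largest fall on the left to the largest rise on the right. A minus or plus after a name marks the 11 genes called lower and the 6 called higher in resistant cells.

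The stimulated genes that were lower included several with large differences. IFI6 (chr1:27666064-27672212), a small membrane protein that protects cells from apoptosis and flavivirus infection, had 16.2, 20.4 and 15.6 FPKM in parental and 1.29, 1.62 and 1.76 FPKM in resistant libraries. The log2 difference was -3.40 (SE 0.19, adjusted p = 4.44e-05), with means of 17.4 ± 2.59 and 1.56 ± 0.241 FPKM (SD, n = 3 each). SP100, a component of PML nuclear bodies, had 12.6, 18.3 and 8.02 FPKM against 0.682, 1.28 and 0.523 FPKM (-3.82, SE 0.41, adjusted p = 5.98e-04). IFI44, a cytoplasmic protein of little known function, had 0.935, 2.02 and 1.04 FPKM in parental libraries and was listed at 0, 0.104 and 0 FPKM in resistant libraries. Its difference of -3.42 (SE 0.51) became -1.15 when 1 FPKM was added before taking logs and -5.81 when 0.01 FPKM was added. No p is given for IFI44, which passed the filter on low values through the parental libraries alone.

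TRIM21, a receptor for antibodies inside the cell that marks bound virus for degradation, had 6.53, 5.47 and 5.85 FPKM against 1.17, 0.860 and 1.14 FPKM (-2.40, SE 0.21, adjusted p = 2.43e-04). HERC6, a ubiquitin ligase family member, had 5.27, 6.09 and 5.33 FPKM against 0.981, 1.02 and 1.43 FPKM (-2.20, SE 0.22, adjusted p = 4.16e-04). IFITM3, which blocks fusion of viruses with endosomes, was the most abundant gene of those that were lower, with 48.3, 42.9 and 45.6 FPKM in parental and 15.6, 12.6 and 13.9 FPKM in resistant libraries (-1.70, SE 0.11, adjusted p = 7.27e-05). ISG20, an exonuclease that degrades viral RNA, had 19.3, 14.9 and 16.1 FPKM against 10.1, 11.2 and 10.3 FPKM, a smaller difference of -0.66 (SE 0.13, adjusted p = 0.00704). None of these 7 genes had groups that overlapped, and each was called in every alternative that gave a value for it.

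The other 4 genes called lower were at or near 1 FPKM. OAS1, which makes the second messenger that activates RNase L, had 0.927, 0.771 and 1.44 FPKM against 0.198, 0.145 and 0.157 FPKM (-2.07, SE 0.38, adjusted p = 0.00517). HERC5, the ligase that attaches ISG15 to proteins, had 2.02, 0.945 and 1.08 FPKM against 0.574, 0.281 and 0.338 FPKM (-1.51, adjusted p = 0.0270). GBP2, a guanylate-binding protein induced by interferon gamma, had 0.445, 0.958 and 0.802 FPKM against 0.102, 0.290 and 0.206 FPKM (-1.48, adjusted p = 0.0388). IFIT2, which binds viral RNA, had 0.358, 0.410 and 0.319 FPKM against 0.0776, 0.108 and 0.0731 FPKM (-1.31). No p is given for IFIT2, which passed the filter on low values through the parental libraries alone. All resistant values were under the parental values in each of these 4 genes.

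Of these, OAS1 was called whichever library was left out, and the calls of the other 3 depended on single libraries. HERC5 lost its call without parental replicate 0 (adjusted p = 0.0823), parental replicate 2 (0.0533), resistant replicate 1 (0.0800) or resistant replicate 2 (0.0772). GBP2 lost it without parental replicate 1 (adjusted p = 0.104), parental replicate 2 (0.106), resistant replicate 0 (0.0972) or resistant replicate 2 (0.0804). IFIT2 lost it without parental replicates 0, 1 or 2 and without resistant replicates 0 or 2. With a pseudocount of 1 FPKM the log2 differences were -0.80 for OAS1, -0.73 for HERC5, -0.52 for GBP2 and -0.33 for IFIT2.

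Among the 6 stimulated genes that were higher, ISG15 was the most abundant. ISG15 (chr1:1001138-1014540), a ubiquitin-like protein that is attached to other proteins, had 61.8, 66.5 and 66.7 FPKM in parental and 113, 131 and 123 FPKM in resistant libraries. The groups were far apart against their spread, with means of 65.0 ± 2.75 and 123 ± 8.97 FPKM (SD, n = 3 each) and a log2 difference of 0.91 (SE 0.08, adjusted p = 2.46e-04). MX1 (chr21:41420020-41470071), a GTPase that traps viral nucleocapsids, had 1.75, 1.30 and 1.65 FPKM against 4.77, 3.28 and 3.38 FPKM (1.22, SE 0.24, adjusted p = 0.00708). Its exons share 562 bases with TMPRSS2 on the opposite strand, an androgen-regulated gene that moved the other way, from a mean of 258 FPKM to one of 64.8 FPKM. IFITM2, a close relative of IFITM3, had 15.9, 13.8 and 13.2 FPKM against 23.0, 18.2 and 24.3 FPKM (0.60, SE 0.14, adjusted p = 0.0156), and lost its call without parental replicate 2 (adjusted p = 0.0501), resistant replicate 0 (0.0548) or resistant replicate 2 (0.0544).

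The remaining 3 were near or under 1 FPKM in parental cells. MX2, the MX1 relative that restricts HIV, had 0.366, 0 and 0.211 FPKM in parental and 2.2, 0.596 and 1.21 FPKM in resistant libraries (2.39, SE 0.73, adjusted p = 0.0373). RSAD2, which encodes viperin, an enzyme that makes a chain terminator of viral RNA synthesis, had 0.134, 0 and 0.481 FPKM against 0.828, 1.72 and 1.01 FPKM (2.37, SE 0.70, adjusted p = 0.0337). IFIT5, an RNA-binding relative of IFIT2, had 0.736, 0.803 and 1.10 FPKM against 1.52, 1.85 and 1.55 FPKM (0.84, SE 0.27, adjusted p = 0.0453). The groups did not overlap in any of these 3 genes, but each call was lost when certain single libraries were left out.

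MX2 lost its call without parental replicate 1 (1.75, adjusted p = 0.0687), parental replicate 2 (0.0683), resistant replicate 0 (0.116) or resistant replicate 2 (0.102). RSAD2 lost it without parental replicate 1 (1.74, adjusted p = 0.0582), parental replicate 0 (0.0828) or resistant replicates 0, 1 or 2 (0.0655, 0.108 and 0.0845). IFIT5 lost it without parental replicates 0 or 1 (adjusted p = 0.114 and 0.0888) or resistant replicates 0, 1 or 2 (0.0873, 0.126 and 0.0889). At a pseudocount of 1 FPKM the log2 differences were 0.92 for MX2, 0.86 for RSAD2 and 0.49 for IFIT5. At 0.01 FPKM those of MX2 and RSAD2 were 3.65 and 3.67 and no longer called (adjusted p = 0.0894 and 0.0841).

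Close relatives that lie side by side in the genome differed in direction in the IFITM cluster and, by calls that depended on single libraries, in the IFIT cluster. In the IFITM cluster on chromosome 11, IFITM3 was lower and IFITM2 higher, and IFITM1, which acts at the cell surface, had 2.15, 1.04 and 2.78 FPKM in parental and 2.16, 2.67 and 3.10 FPKM in resistant libraries with overlap (adjusted p = 0.359). The ratio of IFITM3 to IFITM2 was 3.03, 3.11 and 3.46 in parental libraries and 0.678, 0.692 and 0.574 in resistant libraries, so that the order of the pair was reversed. Of the 50-base windows of IFITM3, 20.8% also occur in other genes of the table, of IFITM2 10% and of IFITM1 15.8%, so that how reads were divided within this cluster is uncertain.

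In the IFIT cluster on chromosome 10, IFIT2 was lower and IFIT5 higher, but both calls were lost when certain single libraries were left out. IFIT2 also passed the filter on low values through the parental libraries alone, and was at 0.108 FPKM or less in the resistant libraries. The ratio of IFIT5 to IFIT2 was 2.06, 1.96 and 3.45 in parental and 19.6, 17.2 and 21.2 in resistant libraries. IFIT1, the founding member that binds viral RNA caps, had 0.404, 0.343 and 0.545 FPKM against 0.0760, 0.236 and 0.116 FPKM, without overlap, and was not called (-1.17, adjusted p = 0.0723). Without resistant replicate 1 it was (-1.43, adjusted p = 0.0496). IFIT3 was too low to test, with at most 0.260 FPKM in parental and 0.0603 FPKM in resistant libraries.

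In the OAS cluster on chromosome 12, OAS1 was lower, while OAS3, the largest enzyme of the family, had 17.7, 7.47 and 17.8 FPKM in parental and 17.9, 17.5 and 23.7 FPKM in resistant libraries. Apart from parental replicate 1, the levels of OAS3 were close together, and the difference of 0.55 (adjusted p = 0.261) was 0.13 without that library. The ratio of OAS3 to OAS1 was 19.1, 9.69 and 12.4 in parental and 90.2, 121 and 151 in resistant libraries. OAS2 was too low to test, with at most 0.152 FPKM in any library. OASL, a relative without enzyme activity that lies elsewhere on the chromosome, had 0.239, 0.484 and 0.922 FPKM against 0.187, 0.0460 and 0.479 FPKM (adjusted p = 0.269).

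On chromosome 21 the neighbours MX1 and MX2 were both higher, and on chromosome 4 the neighbours HERC5 and HERC6 were both lower. On chromosome 2, RSAD2 was higher, and CMPK2, which starts beside it on the other strand and encodes a mitochondrial nucleotide kinase, had 1.87, 0.646 and 1.99 FPKM against 1.71, 4.0 and 2.62 FPKM with overlap (adjusted p = 0.194). The exons of this pair share 351 bases. On chromosome 1, IFI44 was lower, and its neighbour IFI44L was listed at 0.0150 FPKM or less in all parental libraries and at no more than 0.151 FPKM in resistant libraries, too low to test. Between genes far apart, the ratio of ISG15 to IFI6 was 3.82, 3.27 and 4.26 in parental and 87.9, 81.0 and 70.2 in resistant libraries.

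**Figure D5:**
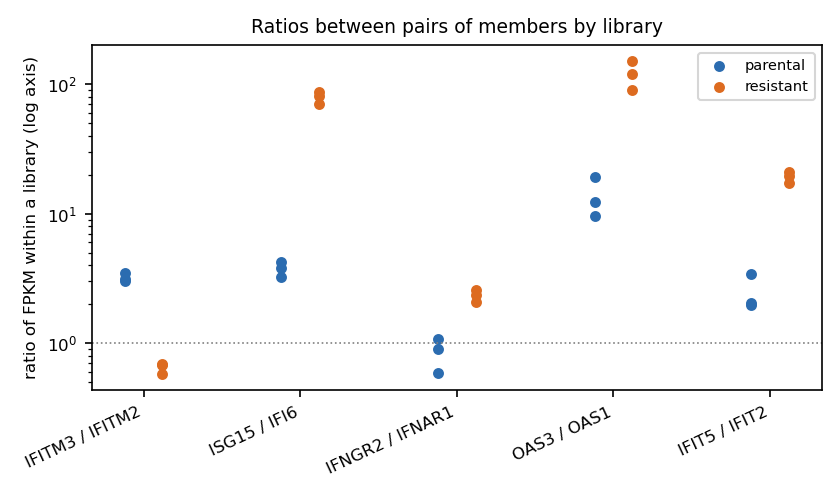
Ratio of FPKM between pairs of members within each library, on a log axis, with a point for each of the 3 parental and 3 resistant libraries. The dotted line marks equal levels. The 5 pairs were chosen after the values were seen and each holds a called gene, so the lack of overlap between the groups in these pairs is not a test. The ratio of IFITM3 to IFITM2 passes from above 1 to below 1, and that of IFIT5 to IFIT2 divides by a gene near the floor in resistant libraries.

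Another 12 stimulated genes were tested and not called. PARP9, which takes part in ADP-ribosylation at interferon targets, had 7.22, 6.23 and 8.20 FPKM against 9.12, 10.9 and 9.47 FPKM and narrowly missed the threshold (0.45, adjusted p = 0.0512), as did BST2, the tetherin that holds budding virions, with 1.39, 1.69 and 1.82 FPKM against 2.39, 3.40 and 2.49 FPKM (0.71, adjusted p = 0.0501). Neither overlapped between groups, and both were called when each library was scaled to the same median (adjusted p = 0.0372 and 0.0434). PARP9 was also called without parental replicate 2 (0.54, adjusted p = 0.0416). USP18, which removes ISG15 from proteins and dampens type I signalling, had 3.85, 4.49 and 3.77 FPKM against 4.45, 5.12 and 5.62 FPKM (adjusted p = 0.165), and 26.9% of its windows are shared with other genes. PARP14 ranged from 6.02 to 10.6 FPKM in parental and from 6.88 to 8.87 FPKM in resistant libraries, and IFI35 from 3.24 to 9.88 FPKM and from 4.74 to 8.0 FPKM, so that the spread within a group exceeded the difference of the means. XAF1, an inducer of apoptosis, was at 0.0266 FPKM or less in every library.

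Parental replicate 1 was low for a number of stimulated genes. It was the lowest of its group in 16 of the 29 stimulated genes tested (55.2%, beside 35.6% of all genes), and was under 0.5 times both other parental libraries in 7 (24.1%, beside 7.95% of all genes). These 7 were OAS3, IFITM1, CMPK2, MX2, RSAD2, IFI27 and EPSTI1. IFI27, a mitochondrial protein often among the strongest responders to type I interferon, had 1.65, 0.354 and 1.64 FPKM in parental and 0.560, 1.58 and 1.32 FPKM in resistant libraries. Its difference of 0.06 (adjusted p = 0.950) was -0.58 without this library. EPSTI1 had 0.581, 0.106 and 0.732 FPKM against 0.780, 0.377 and 0.572 FPKM, and its difference of 0.43 (adjusted p = 0.607) was -0.20 without it. The leukocyte markers also had their lowest sum in this library, 0.152 FPKM beside 1.49 and 1.05 FPKM in the other parental libraries, and their part in these values was not tested. Among the 15 signalling genes, parental replicate 1 was under 0.5 times both others in 0.

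Beside the members, 104 other genes of the pathway were looked up, of which 70 were tested, 14 called higher (20%) and 23 lower (32.9%), with a median difference of -0.28. Together 52.9% were called, between the shares of all genes tested (44.4%) and of protein-coding genes (55.7%). The 14 include IFNLR1 and SOCS3, which passed the filter on low values through the resistant libraries alone. SOCS3 had means of 0.0242 FPKM in parental and 0.430 FPKM in resistant cells. Both are part of these counts, but no p is given for them. Of the 22 genes for the interferons themselves, 20 were listed at 0 in all 6 libraries and none was high enough to test. IFNLR1, the specific chain of the receptor for interferon lambda, was listed at 0 in all parental libraries and at 4.34, 3.61 and 3.28 FPKM in the resistant libraries, and since it passed the filter on low values through the resistant libraries alone, no p is given. IL10RB, its partner chain, chosen after its values were seen, had 3.56, 5.19 and 3.87 FPKM against 9.27, 9.92 and 10.7 FPKM (1.24, adjusted p = 0.00190).

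The 12 other sensors and adaptors tested gave 0 called higher, also 0 at an unadjusted limma p under 0.05. Of all genes tested 22.1% were called higher, and of the protein-coding genes 28.9%. Called lower were 4 (33.3%), beside 22.3% of all genes tested and 26.7% of the protein-coding genes. With 12 genes, these shares are not read as a trait of the sensors and adaptors. The 4 lower genes were DHX58, MAVS, MYD88 and TICAM1, chosen after their values were seen, with log2 differences of -1.55, -0.82, -0.63 and -1.43. MAVS is the adaptor through which MDA5 and RIG-I signal, and its mean was 16.7 FPKM in parental and 9.46 FPKM in resistant cells (adjusted p = 8.08e-04).

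The 42 other stimulated genes tested were called in both directions, 10 higher (23.8%) and 13 lower (31%), with a median of -0.48. The share called was 54.8%, near the 55.7% of protein-coding genes. IFI30, a thiol reductase of lysosomes, had 0.570, 0.489 and 0.702 FPKM in parental and 14.1, 15.1 and 14.2 FPKM in resistant libraries (4.42, adjusted p = 2.08e-05). SP140L, a relative of SP100 on the same chromosome, had 0.827, 0.719 and 0.545 FPKM against 10.6, 14.6 and 13.7 FPKM (4.04, adjusted p = 5.00e-05), opposite in direction to SP100. LY6E, a membrane-anchored protein that restricts coronavirus entry, had 99.7, 103 and 112 FPKM against 6.24, 7.32 and 6.63 FPKM (-3.94, adjusted p = 3.76e-06). PARP10, a mono-ADP-ribosyltransferase, had 31.4, 33.4 and 37.7 FPKM against 3.56, 5.77 and 2.15 FPKM, and LGALS3BP, a secreted glycoprotein, had 9.37, 9.34 and 7.11 FPKM against 1.29, 1.60 and 1.63 FPKM.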

How the data were processed

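RNA-Seq of 6 libraries was analysed, 3 per group, grouped by their labels. Per the study's methods, the authors used TrimGalore 0.4.3 for trimming of the 50 bp single-end reads, STAR 2.5.3 for alignment (GRCh38, GENCODE v25) and Cufflinks 2.2.1 for differential expression. The submitters' processing notes name Trimmomatic 0.27 and a mouse build instead, while the identifiers and loci of the deposited table are human. The deposited values name no unit and were taken as FPKM from these tools. FPKM depend on all other genes of a library, and no counts, and so no counting intervals, were at hand.

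The test was that of limma 3.58.1 (R 4.3.3) for resistant minus parental libraries on log2(FPKM + 0.1), with a variance trend, for the 24468 genes that average 0.1 FPKM or more, two-sided and adjusted by Benjamini-Hochberg over all of them with a threshold of 0.05. The fit was tested on simulated data. An exact permutation test of 3 against 3 libraries cannot go below 0.1 and was not used. Positions are from GENCODE v44, which matched 48 of 48 members. Shared windows are 50-base stretches of the canonical transcript that also occur in transcripts of other genes of the table. Promoters are from RefSeq, with the window nearest the annotated start for each gene. Scripts ran in Python 3.11.15 (pandas 2.3.3, numpy 2.4.6, matplotlib 3.10.9).

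The members and lists were chosen with earlier results of these data known. By rule, values per library were given for all signalling members, for members called without overlap at 2-fold or more, for relatives of called members in the same locus and for the 3 other pathway genes per direction with the largest called differences at 1 FPKM or more. Some genes covered by this rule or by the marker lists are not reported here. Values per library of the remaining members, and the promoters and ratios shown, were chosen after the values were seen. Alternatives covered the pseudocount, the filter, the scaling, the trend, the replicate number, each library left out and the threshold. The LNCaP libraries, the qRT-PCR and the authors' own differential calls were not used here.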

Additional observations from a re-analysis of the deposited data

How the results depend on the processing

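All 23 called members kept their direction in every alternative that gave a value, and 15 of them were also called in each. The counts that moved by more than 1.5 times were as follows. Members called higher went from 9 to 5 without a filter on low values and to 4 at an adjusted p below 0.01, and stimulated genes called higher from 6 to 3 and to 2 under the same settings. Members called lower went from 14 to 8 and stimulated genes called lower from 11 to 6 where a mean of at least 1 FPKM was asked, which removes genes from the test. With each library left out in turn, members called higher ranged from 4 to 7 and lower from 11 to 14, stimulated genes higher from 2 to 5 and lower from 8 to 11, signalling genes higher from 2 to 3 and lower from 3 to 4, other pathway genes higher from 11 to 14 and lower from 21 to 23, and all genes from 9303 to 10190.

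The sign changed in some alternatives for 8 members, none of them called. IFNAR2 was at 0.038 without genes under 400 bases, TYK2 at 0.0070 with quantile normalization, IFI27 at -0.0058 with a pseudocount of 1 FPKM and -0.12 with quantile normalization, and IFI35 at -0.014 with quantile normalization. With single libraries left out, values ranged from -0.090 to 0.059 for IFNAR2, from -0.62 to 0.085 for JAK1, from -0.15 to 0.011 for TYK2, from -0.15 to 0.60 for IRF1, from -0.58 to 0.47 for IFI27, from -0.38 to 0.41 for IFI35, from -0.20 to 0.81 for EPSTI1 and from -0.34 to 0.064 for PARP14. The lowest values of IRF1, IFI27, IFI35 and EPSTI1 and the highest of PARP14 came without parental replicate 1, and the cause was not tested.

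The labels give both groups the replicate numbers 0, 1 and 2. The deviations of libraries of the same number correlated at 0.00802, 0.0165 and -0.00301, beside -0.026 to 0.0201 for libraries of different numbers. No shared effect of the number was seen in the values, but the labels do not say whether the libraries were prepared in pairs. With the replicate number as a block, 9463 genes were called, with 6 members higher and 13 lower, 4 stimulated genes higher and 10 lower, 2 signalling genes higher and 3 lower, and 13 other pathway genes higher and 23 lower. Without read counts, depth limits the 14 stimulated genes under 1 FPKM most, where a few reads set a value.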
